A study of Mus musculus with 8 samples.

Results

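The RNA levels of 40 genes of DNA replication and mismatch repair were examined in distal colon from control and Siglec-XII mice. The genes were chosen by name, with earlier results of these data known: 34 act in replication and 6 in mismatch repair. They are 40 of the 52143 genes listed in the deposited values, and all 40 belonged to the 13164 genes that were tested (TPM of 1 or more in 4 samples or more). TPM is a gene's share of the transcripts of a library, corrected for transcript length.

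Siglec-XII is a human receptor, encoded by SIGLEC12, that carries inhibitory signaling motifs and has lost its sialic acid binding. Controls were samples from Villin1-Cre-ERT mice (n = 4 samples) and the other group, called Siglec-XII, was from SIGLEC12-Villin1-Cre-ERT mice (n = 4 samples). The number of animals is not established, since the design text speaks of fewer mice than samples per group. Both groups received tamoxifen at 10 mg/mL for 5 days, and colons were taken 7 days after the last dose (day 12). Only females were used, and the methods give an age of 8 weeks at the tamoxifen injections. The SIGLEC12 sequence sits in the ROSA26 locus behind a loxP-flanked EGFP stop and the CAG promoter, so that Cre under the Villin1 promoter releases it in the intestinal epithelium. Both groups carried Cre and received tamoxifen, whereas the knockin allele was present in the Siglec-XII group alone. The methods describe knockin mice with 1 floxed SIGLEC12 allele (heterozygous) and, as controls, littermates with Villin1-Cre only. The transgene itself was not analysed here, and the labels were therefore not checked against it. The question was how replication and repair genes stood in the colon after induction of Siglec-XII and before any carcinogen.

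Colon epithelium is renewed from dividing cells near the crypt base, and these cells carry most of the replication machinery of the tissue. Before S phase, the origin recognition complex with Cdc6 and Cdt1 loads the ring of Mcm2 to Mcm7 onto DNA. Cdc45 and the GINS complex then turn that ring into an active helicase, after which primase, the polymerases, the sliding clamp Pcna and the ligase copy both strands. Mismatch repair corrects errors that copying leaves behind: MutS proteins such as Msh6 and Msh3 recognise the mismatch, MutL proteins such as Pms2 and Mlh3 act on the strand, and the exonuclease Exo1 removes it. Transcription of many replication genes is driven by E2F factors at the entry into S phase.

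None of the 40 genes passed an adjusted p of 0.05 in the comparison of the groups (limma with Benjamini-Hochberg adjustment over all genes tested, smallest adjusted p = 0.515), a limit that 0.038% of all tested genes passed. At an unadjusted p of at most 0.05, 12 of the 40 genes were lower in Siglec-XII samples and 0 were higher, against 7.67% of all tested genes lower and 1.19% higher. The 12 genes were Mcm3, Mcm4, Mcm6, Mcm10, Gins1, Rpa2, Pole, Prim1, Fen1, Lig1, Rrm2 and Msh6. The log2 difference (Siglec-XII minus control, on the log2(TPM + 1) scale, which understates the difference of low genes) was below 0 in 38 of the 40, a sign that 78.1% of all tested genes shared. Its median was -0.39 over the replication genes and -0.16 over the repair genes, beside -0.15 over all tested genes. The median of the repair genes turned to 0.032 after quantile normalization, 0.048 after median centring, 0.062 after centring within bins of transcript length and 0.0046 with array weights, whereas that of the replication genes stayed between -0.49 and -0.15 in every alternative run. The array weights were 1.18, 6.87, 0.41 and 0.19 for Siglec-XII samples 1 to 4. The run with these weights thus rested mostly on Siglec-XII 2 within its group.

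The split into 12 lower and 0 higher genes depended on scaling. It was 4 and 1 after median centring, which moved the median of all tested genes from -0.15 to 0.060, and there 2.16% of all tested genes were lower and 8.64% higher. After quantile normalization it was also 4 and 1, beside 3.1% of all tested genes lower and 5.35% higher. After length-bin centring it was 8 and 1, beside 4.55% and 6%. Without Siglec-XII samples 3 and 4, it was 3 and 0, beside 1.57% and 1.18%. The excess of lower over higher calls among all tested genes was thus turned around by the first 3 of these scalings.

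**Figure D1:**
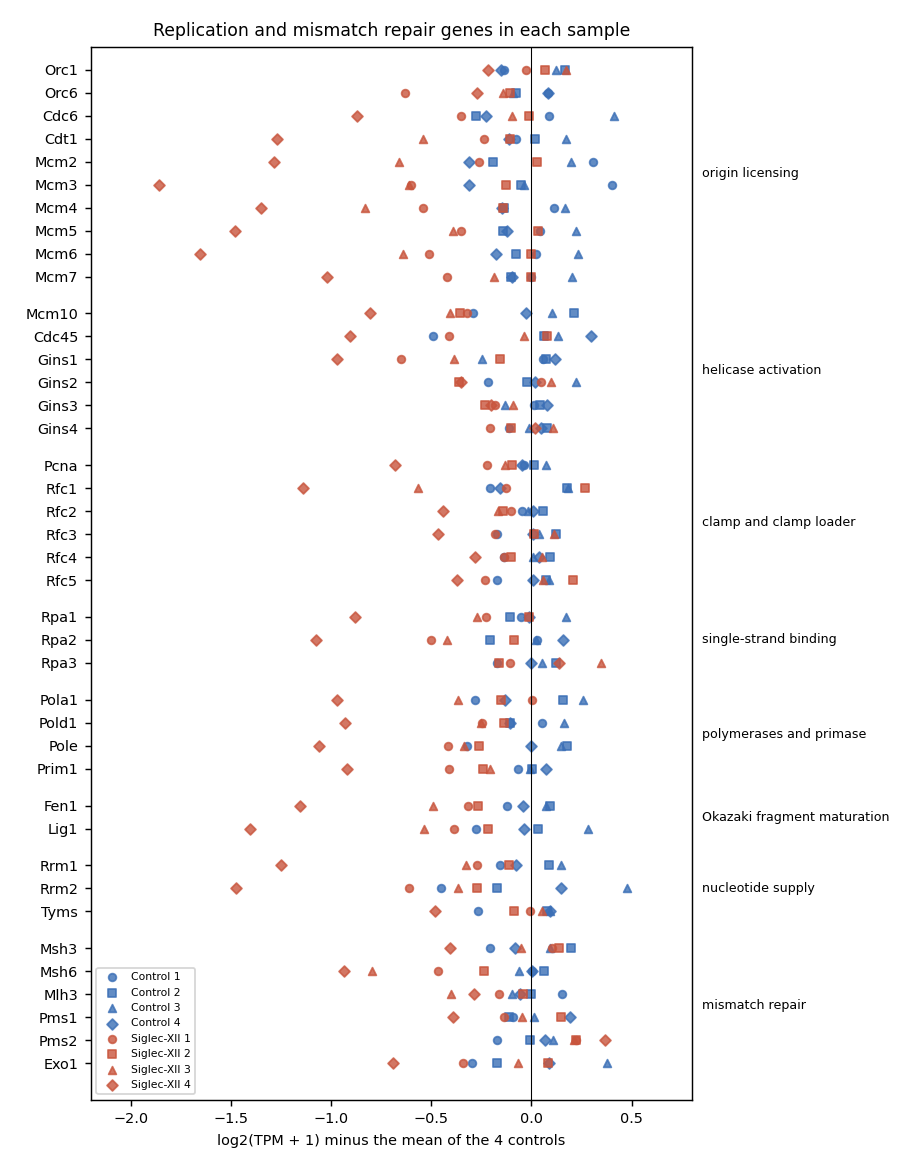
Level of each of the 40 genes in each sample, as log2(TPM + 1) minus the mean of the 4 controls (horizontal axis), with genes grouped by role; blue marks are controls, red marks are Siglec-XII samples and the marker shape gives the sample number. Siglec-XII 4 (red diamonds) was the lowest sample in 33 of the 40 genes, while the lowest Siglec-XII value of Pms2 stood above its highest control value.

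Siglec-XII sample 4 held the lowest of the 8 values in 33 of the 40 genes, while it did so in 51.9% of all tested genes. The mean of the 34 replication genes on the log2(TPM + 1) scale was 3.65, 3.74, 3.85 and 3.70 in controls 1 to 4 and 3.44, 3.64, 3.49 and 2.87 in Siglec-XII samples 1 to 4. As deposited, all 4 Siglec-XII samples thus lay below all controls, Siglec-XII 2 by the least (3.637 against 3.646 in control 1) and Siglec-XII 4 by the most. The median tested gene was itself shifted from its 8-sample mean by -0.16 in Siglec-XII 3 and 0.15 in control 2. The separation therefore applies to the deposited scale and was not examined after centring. The group means were 3.74 ± 0.087 and 3.36 ± 0.33 (SD, n = 4 each), and their difference of -0.38 was -0.22 without Siglec-XII 4. For the 6 repair genes, the mean was 2.17, 2.27, 2.35 and 2.31 in controls 1 to 4 and 2.15, 2.33, 2.08 and 1.89 in Siglec-XII samples 1 to 4, and the groups overlapped.

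Depth cannot be read from TPM, and the samples each had 12748 to 13715 genes at 1 TPM or more. Siglec-XII samples 3 and 4 stood apart from the rest in a way that followed transcript length. Among the longest of 4 equal classes of transcript length, the median gene was shifted from its 8-sample mean by -0.33 and -0.50 log2 units in these samples, against 0.0015 and -0.075 in the shortest class. The group difference of the median gene went from -0.056 in the shortest class through -0.12 and -0.18 to -0.25 in the longest, while the median of the 40 genes was -0.13, -0.48, -0.41 and -0.36 in the same classes (7, 8, 15 and 10 genes). The part of this shift in the differences of single genes was not tested beyond the values given here without the 2 samples and with length-bin centring.

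**Figure D2:**
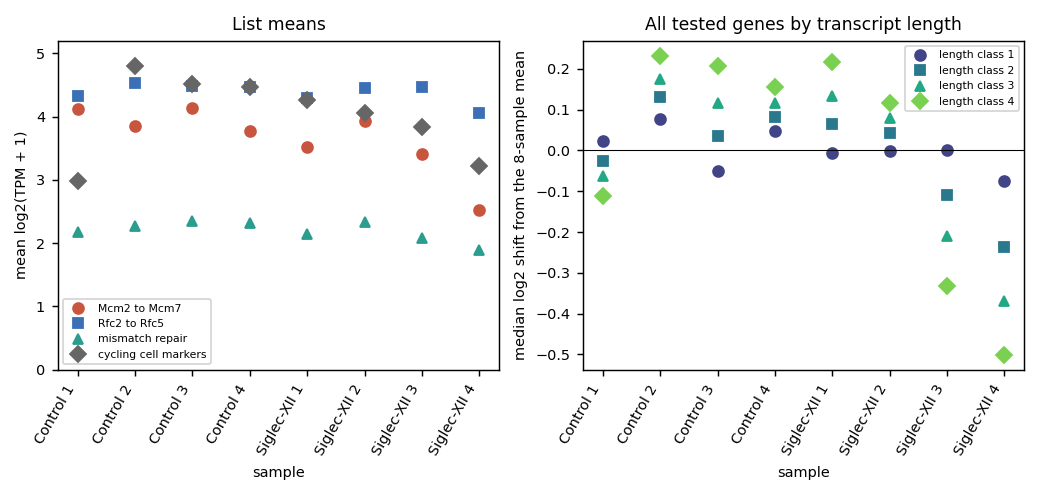
Left, mean log2(TPM + 1) in each sample of Mcm2 to Mcm7, Rfc2 to Rfc5, the mismatch repair genes and cycling cell markers. Right, median log2 shift of all tested genes from the 8-sample mean, by class of transcript length (1 shortest, 4 longest). Siglec-XII 4 was lowest for the helicase genes (2.52) and in the longest class (-0.50), while control 1 was lowest for the cycling cell markers (2.98).

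Sequence was not used to choose the genes. RefSeq promoter windows of GRCm38.p6, 250 bases before to 50 after the start site, were found for 33 of the 40 genes (28 replication and 5 repair). The letters searched on both strands as E2F motifs were TTTCGCGC, TTTGGCGC, TTTCCCGC and TTCCCGCC, of which the last pair can overlap. They were present in 16 of the 33 windows (48.5%), in 14 of 28 replication and 2 of 5 repair genes, against 6.66% of the 9693 windows of tested genes and 4.25% of all 20626 windows. CCAAT on either strand was present in 24 of the 33 (72.7%), against 38.8% of the windows of tested genes. Of the windows of genes at an unadjusted p of at most 0.05, 4 of 9 (44.4%) held E2F letters, and 12 of 24 (50.0%) of the other windows did.

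Stretches from 5 of these windows are shown because they hold the E2F letters upstream of the start site in the longest part free of annotated exons. Orc1, Mcm7, Gins3, Rfc3, Prim1 and the repair gene Msh3 also held E2F letters upstream, but not in such a part, and are not shown. A stretch of Pms2 is shown as that of the gene with no overlap and the Siglec-XII samples higher. Each is given 5′ to 3′ on the strand of its gene, and capitals mark the E2F letters or their reverse complement. Mcm5 (chr8:75109336-75109387, plus strand) and Mcm6 (chr1:128359725-128359835, minus strand) encode helicase subunits and both hold a pair of overlapping motifs that face each other. Of the 33 windows, 27 matched the start of an annotated transcript, but those of Mcm5 and Mcm6 did not. Their start sites lie 60 and 41 bases from the principal annotated start. Cdc6 (chr11:98907993-98908040, plus strand) loads the helicase, Pola1 (chrX:93632266-93632313, minus strand) is the catalytic subunit of the priming polymerase, and Rrm1 (chr7:102441608-102441655, plus strand) is the large subunit of ribonucleotide reductase. The stretch of Pms2 (chr5:143909848-143909963, plus strand) fills the gap to Aimp2 on the other strand. It holds none of the E2F letters, but it does hold CCAAT.
Mcm5: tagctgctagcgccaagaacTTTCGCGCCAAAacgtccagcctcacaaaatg
Mcm6: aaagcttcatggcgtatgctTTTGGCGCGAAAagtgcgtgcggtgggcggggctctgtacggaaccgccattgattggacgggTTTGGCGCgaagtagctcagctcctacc
Cdc6: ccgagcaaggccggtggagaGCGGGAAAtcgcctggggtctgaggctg
Pola1: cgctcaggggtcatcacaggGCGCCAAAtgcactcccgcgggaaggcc
Rrm1: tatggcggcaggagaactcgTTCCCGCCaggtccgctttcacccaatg
Pms2: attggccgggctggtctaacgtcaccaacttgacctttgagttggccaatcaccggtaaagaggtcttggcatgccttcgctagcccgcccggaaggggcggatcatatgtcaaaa

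Origin licensing genes had a median difference of -0.54, and 3 of the 10, all helicase subunits, were lower at an unadjusted p of at most 0.05. Mcm3 (chromosome 1 from 20802968 to 20820312 of GRCm38) read 17.9, 12.8, 12.9 and 10.5 TPM in controls 1 to 4 and 8.42, 12.1, 8.35 and 2.94 TPM in Siglec-XII samples 1 to 4. Siglec-XII 4 was far below all others, while Siglec-XII 2 lay within the control range. Its difference of -0.80 (SE 0.340, unadjusted p = 0.0428 from limma) was the most negative of the 40. The values of Mcm4 were 9.45, 7.79, 9.86 and 7.72 TPM in controls and 5.63, 7.74, 4.42 and 2.78 TPM in Siglec-XII samples, where Siglec-XII 2 lay between the lowest 2 controls. This gave a difference of -0.72 (SE 0.241, unadjusted p = 0.0155). For Mcm6 the controls held 21.8, 20.3, 25.4 and 18.9 TPM and the Siglec-XII samples 14.7, 21.4, 13.4 and 6.12 TPM, a difference of -0.70 (SE 0.304, unadjusted p = 0.0459). Here too Siglec-XII 2 lay among the controls and Siglec-XII 4 was lowest. Without Siglec-XII samples 3 and 4, the differences of these 3 genes kept their sign, and the weakest values among all alternatives were -0.14 in Mcm3, -0.21 in Mcm4 and -0.11 in Mcm6.

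The other helicase subunits, Mcm2 (-0.55), Mcm5 (-0.55) and Mcm7 (-0.41), had differences of the same sign at an unadjusted p of 0.0833, 0.0900 and 0.0828, and that of Mcm2 was 0.029 with array weights. Over the 6 subunits, controls averaged 3.97 ± 0.18 and Siglec-XII samples 3.35 ± 0.59 on the log2(TPM + 1) scale (SD, n = 4 each). The subunits form a ring in equal number, but their RNA levels were unequal. In controls they ranged from 8.71 ± 1.11 TPM for Mcm4 to 21.6 ± 2.79 TPM for Mcm6 (SD, n = 4), and the ratio of the highest to the lowest subunit was 2.51 ± 0.14 among controls and 3.33 ± 0.69 among Siglec-XII samples. By sample this ratio was 2.78, 2.76, 4.19 and 3.57 in Siglec-XII samples 1 to 4, beside a highest control value of 2.60. It was thus highest in Siglec-XII samples 3 and 4, which also had the shift with transcript length. Orc6, the smallest subunit of the origin recognition complex, read 16.0, 14.3, 14.1 and 16.1 TPM in controls and 9.39, 13.9, 13.6 and 12.3 TPM in Siglec-XII samples. The groups did not overlap, although Siglec-XII 2 and 3 came close to the lowest control (difference -0.29, SE 0.139, unadjusted p = 0.0690). Cdt1, the loading factor, differed by -0.54 (unadjusted p = 0.0505) and Cdc6, the loading ATPase, by -0.33 (unadjusted p = 0.182). Orc1 was 2.37 ± 0.393 TPM in controls and 2.36 ± 0.379 TPM in the Siglec-XII group (n = 4 each, SD).

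Among the 6 genes that activate the helicase, 2 were lower at an unadjusted p of at most 0.05. Mcm10, which stabilises the fork helicase, read 2.98, 4.65, 4.24 and 3.79 TPM in controls and 2.90, 2.81, 2.67 and 1.79 TPM in Siglec-XII samples. All Siglec-XII samples were below all controls, with control 1 close to the highest of them (difference -0.47, SE 0.167, unadjusted p = 0.0196 from limma). Gins1, a subunit of GINS, stood at 5.50, 5.55, 4.26 and 5.76 TPM in controls and at 2.98, 4.60, 3.77 and 2.19 TPM in Siglec-XII samples. The groups overlapped because control 3 was below Siglec-XII 2 (difference -0.54, SE 0.191, unadjusted p = 0.0196). The partners of Gins1 in the same complex showed smaller differences. Gins3, the member with the lowest mean TPM, read 1.53, 1.59, 1.29 and 1.65 TPM in controls and 1.22, 1.14, 1.36 and 1.18 TPM in Siglec-XII samples, and its groups overlapped in control 3 and Siglec-XII 3 (difference -0.18, unadjusted p = 0.164). Gins2 and Gins4 differed by -0.14 and -0.046, with 95% intervals of -0.49 to 0.21 and -0.29 to 0.20, and their sign, like that of Gins3, changed after median centring. Subunits that act as 1 complex also lay far apart in level, with Gins4 at 21.9 ± 1.33 TPM in controls and Gins1 at 5.27 ± 0.679 TPM (SD, n = 4). The value of Gins2 is uncertain, since 66.2% of its windows of 31 bases are shared with the overlapping gene Gse1. Cdc45, the remaining helicase component, differed by -0.32 (SE 0.252).

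Pcna, the sliding clamp and the member with the highest mean TPM (chromosome 2 from 132249162 to 132253314), read 78.5, 81.4, 84.8 and 78.1 TPM in controls and 68.9, 75.4, 73.4 and 50.0 TPM in Siglec-XII samples. All Siglec-XII samples were below all controls, with 3 of them within 10 TPM of the lowest control and Siglec-XII 4 well below. Its difference was -0.28 (SE 0.132, unadjusted p = 0.0607 from limma), and 23.3% of its windows of 31 bases recur in the pseudogene Pcna-ps2. None of the clamp loader genes Rfc1 to Rfc5 had an unadjusted p of 0.05 or less. Rfc2 held 41.2, 44.4, 42.1 and 42.8 TPM in controls and 39.7, 38.5, 37.9 and 31.1 TPM in Siglec-XII samples. Its groups did not overlap (difference -0.21, unadjusted p = 0.0631), but the difference became 0.00023 after median centring. Rfc3, Rfc4 and Rfc5 differed by -0.13, -0.12 and -0.084, each with a change of sign after median centring and quantile normalization. Of the windows of 31 bases of Rfc4, 10.5% recur in Eif4a2 (mean 198 TPM). For Rfc5, 19.3% recur in other genes, with Wsb2 (mean 75.2 TPM) holding the most (9.93%). The large subunit Rfc1 differed by -0.39 (SE 0.279), with Siglec-XII 2 the highest and Siglec-XII 4 the lowest of the 8 samples.

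Replication protein A coats single-stranded DNA as a trimer, and its subunits differed from each other. Rpa2 read 11.1, 9.30, 11.1 and 12.3 TPM in controls and 7.40, 10.2, 7.88 and 4.65 TPM in Siglec-XII samples. The overlap came from Siglec-XII 2 above control 2 (difference -0.52, SE 0.204, unadjusted p = 0.0306 from limma). The largest subunit, Rpa1, differed by -0.35 (unadjusted p = 0.0851). The smallest, Rpa3, was 55.0 ± 4.72 TPM in controls and 57.6 ± 9.79 TPM in Siglec-XII samples (n = 4 each, SD), which is a difference of 0.054 with a 95% interval of -0.24 to 0.35 whose sign turned under 4 alternatives, array weights (-0.16) among them. Of its windows of 31 bases, 13.3% recur in other genes.

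All 4 genes of the polymerases and primase had a difference below 0, and 2 of them were at an unadjusted p of at most 0.05. Pole, the catalytic subunit of the leading strand polymerase, read 1.98, 3.22, 3.14 and 2.72 TPM in controls and 1.80, 2.11, 1.95 and 0.789 TPM in Siglec-XII samples. Control 1 was below Siglec-XII 2, so the groups overlapped (difference -0.52, SE 0.207, unadjusted p = 0.0330 from limma). Prim1, the catalytic primase subunit, was at 11.9, 12.6, 12.5 and 13.2 TPM in controls and 9.19, 10.4, 10.7 and 6.15 TPM in Siglec-XII samples. The controls lay close together and above all Siglec-XII samples (difference -0.45, SE 0.167, unadjusted p = 0.0254). Pold1, the catalytic subunit of the lagging strand polymerase, read 8.18, 7.19, 8.88 and 7.19 TPM in controls and 6.44, 7.03, 6.43 and 3.63 TPM in Siglec-XII samples. It also separated the groups, narrowly for Siglec-XII 2 (difference -0.39, unadjusted p = 0.0674). Pola1 differed by -0.37 (SE 0.229).

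Both genes of Okazaki fragment maturation were lower at an unadjusted p of at most 0.05. Fen1, the flap endonuclease, read 10.9, 12.9, 12.6 and 11.6 TPM in controls and 9.41, 9.78, 8.23 and 4.82 TPM in Siglec-XII samples. All Siglec-XII samples were below all controls (difference -0.56, SE 0.198, unadjusted p = 0.0198 from limma), and the unadjusted p was at most 0.0490 in the main comparison and in all alternatives run for it. Its level is uncertain, since 79.6% of its windows of 31 bases recur elsewhere, most of them in Gm10143, which had a mean of 0.017 TPM. Lig1, the replicative DNA ligase, was at 12.4, 15.6, 18.7 and 14.8 TPM in controls and 11.4, 13.0, 10.2 and 5.12 TPM in Siglec-XII samples. Only control 1 and Siglec-XII 2 crossed (difference -0.64, SE 0.253, unadjusted p = 0.0333). Among the genes of nucleotide supply, Rrm2, the regulated subunit of ribonucleotide reductase, read 8.81, 10.9, 17.7 and 13.9 TPM in controls and 7.78, 10.1, 9.42 and 3.83 TPM in Siglec-XII samples. Controls spread widely and overlapped with Siglec-XII 2 and 3 (difference -0.68, SE 0.294, unadjusted p = 0.0458). Rrm1 differed by -0.49 (unadjusted p = 0.0648), and Tyms, the thymidylate synthase, by -0.13 (unadjusted p = 0.387), with a positive sign after median centring.

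**Figure D3:**
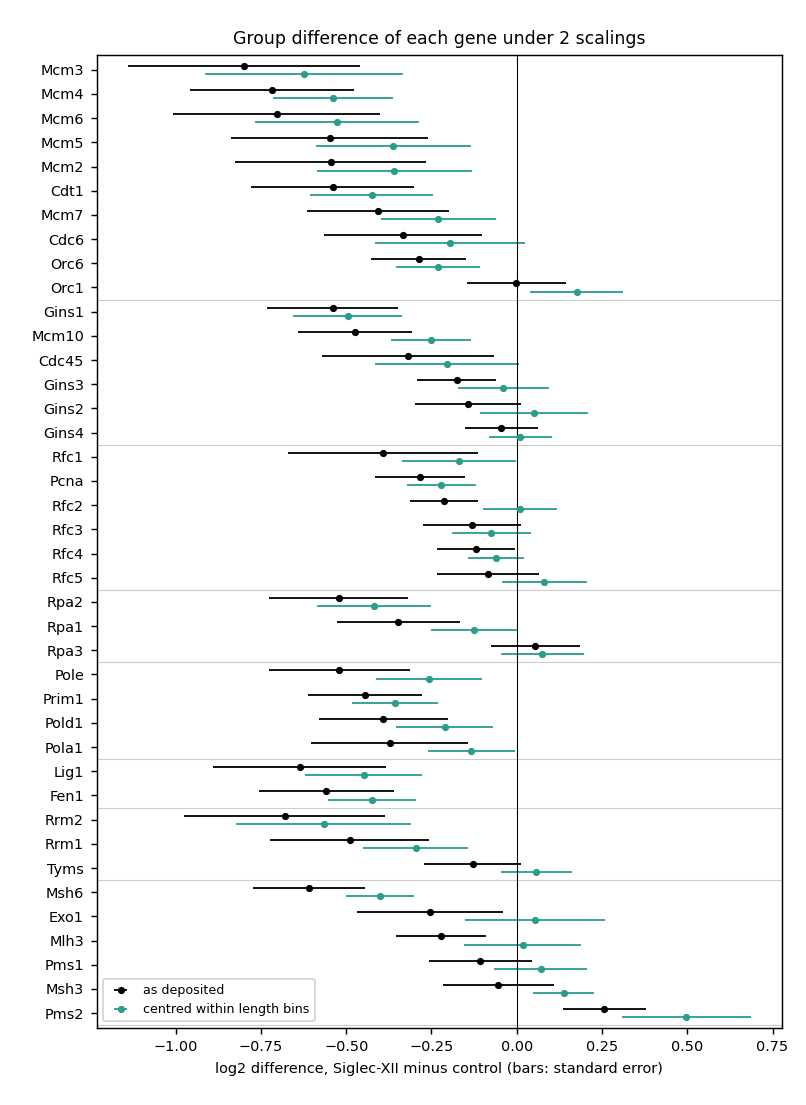
Log2 difference of each gene between Siglec-XII and control samples (points) with its standard error (bars), as deposited (black) and after centring each sample within bins of transcript length (green); genes are grouped by role and sorted within it. As deposited, 38 of the 40 differences were below 0, and 28 of the 40 were after length-bin centring.

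Of the 6 mismatch repair genes, 5 had a difference below 0, a sign that 78.1% of all tested genes shared, and 1 (Pms2) had a difference above 0. Msh6, the mismatch recognition subunit for base mismatches (chromosome 17 from 87975062 to 87990892), read 10.0, 10.5, 9.54 and 10.0 TPM in controls and 6.98, 8.36, 5.34 and 4.76 TPM in Siglec-XII samples. The controls lay within 1 TPM of each other and above all Siglec-XII samples, of which samples 3 and 4 were the lowest. The group means were 10.0 ± 0.394 TPM and 6.36 ± 1.63 TPM (SD, n = 4 each). Its difference of -0.61 (SE 0.165, 95% interval -0.98 to -0.24) had the smallest unadjusted p of the 40 genes (0.00501 from limma, adjusted p = 0.515 with Benjamini-Hochberg), and the unadjusted p lay between 0.00133 and 0.0211 over the alternatives.

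Pms2, the endonuclease subunit of the main MutL complex (chromosome 5 from 143909964 to 143933968), went the other way. It held 2.48, 2.90, 3.23 and 3.11 TPM in controls and 3.58, 3.58, 3.54 and 4.06 TPM in Siglec-XII samples. The lowest Siglec-XII value exceeded the highest control value, which held for 1 of the 40 genes, against 1.05% of all tested genes. All Siglec-XII samples lay below all controls in 8 of the 40 genes, against 4.06% of all tested genes. Group means of Pms2 were 2.93 ± 0.326 TPM and 3.69 ± 0.247 TPM (n = 4 each, SD), which is a difference of 0.26 (SE 0.123, 95% interval -0.020 to 0.53, unadjusted p = 0.0656 from limma) that stayed above 0 in every alternative, between 0.19 and 0.50. On the log2 scale, Pms2 minus Msh6 was -1.66, -1.56, -1.32 and -1.43 in controls 1 to 4 and -0.80, -1.03, -0.48 and -0.19 in Siglec-XII samples 1 to 4. That the 2 groups did not overlap in this value follows from the lack of overlap in each gene, in opposite directions, and adds nothing to it. The pair was chosen after its values were seen, and the value was not tested.

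Msh3, the recognition subunit for larger loops, read 5.28, 7.31, 6.74 and 5.84 TPM in controls and 6.78, 6.97, 5.999 and 4.47 TPM in Siglec-XII samples. Only Siglec-XII 4 lay below the controls (difference -0.055, SE 0.162), and the sign turned under 8 of the alternatives. Mlh3, a MutL protein that also acts in meiosis, was at 4.05, 3.52, 3.24 and 3.36 TPM in controls and 3.06, 3.40, 2.44 and 2.71 TPM in Siglec-XII samples. The groups overlapped in Siglec-XII 2 alone (difference -0.22, unadjusted p = 0.127 from limma). Pms1, a MutL protein with no endonuclease site, read 1.34, 1.31, 1.52 and 1.85 TPM in controls and 1.27, 1.76, 1.41 and 0.904 TPM in Siglec-XII samples, with Siglec-XII 1 just below and Siglec-XII 4 well below the controls (difference -0.11). Exo1, the exonuclease, read 1.98, 2.24, 3.75 and 2.88 TPM in controls and 1.88, 2.87, 2.49 and 1.26 TPM in Siglec-XII samples. The groups overlapped, and the difference of -0.25 had an unadjusted p of 0.267.

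**Figure D4:**
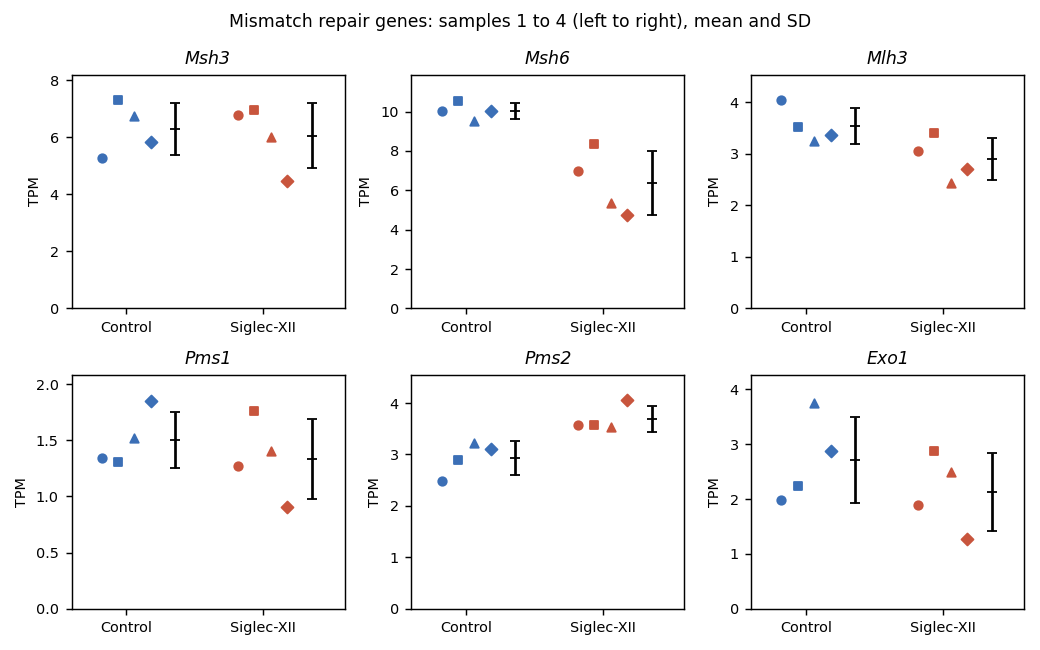
TPM (vertical axis, from 0) of the 6 mismatch repair genes in controls (blue) and Siglec-XII samples (red), samples 1 to 4 from left to right, with the mean and SD of each group beside the points. The groups do not overlap for Msh6, which was lower (10.0 against 6.36 TPM), and for Pms2, which was higher (2.93 against 3.69 TPM), in Siglec-XII samples.

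The replication genes varied together across samples. After subtraction of the group means, the mean Pearson r over pairs of replication genes in the 8 samples was 0.56, beside 0.24 for pairs of all tested genes, 0.25 for pairs of repair genes and 0.37 for a replication with a repair gene. These values are descriptions, since all points come from the same 8 libraries. Within Mcm2 to Mcm7 the mean r was 0.93, and within Rfc2 to Rfc5 it was 0.78. Centring each sample on its median gave 0.42 for replication genes and 0.88 for the helicase subunits, with 0.024 for all tested genes, and length-bin centring gave 0.41 and 0.88. Pairs of repair genes had a mean r of 0.15 after median centring and 0.31 after length-bin centring. For a replication with a repair gene, it was 0.25 and 0.19. Within Rfc2 to Rfc5 the mean r was 0.79 after median centring and 0.43 after length-bin centring.

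The highest pairs were Mcm5 with Mcm6, Fen1 with Rrm1 and Mcm5 with Rpa1, each at 0.99. The lowest were Rpa3 with Mlh3 (-0.91), Gins4 with Mlh3 (-0.77) and Mcm3 with Pms2 (-0.72). Pcna followed the mean of the other replication genes most closely (r = 0.99), as did Rrm1 (0.99). Several members did not follow that mean: Orc6 (0.027), Gins3 (-0.092), Gins4 (-0.21) and Rpa3 (-0.22) among the replication genes and Mlh3 (0.20) and Pms2 (-0.31) among the repair genes. The repair genes Msh3 (0.85), Exo1 (0.83), Pms1 (0.79) and Msh6 (0.73) had higher values as deposited. After median centring these were 0.66, 0.80, 0.60 and 0.32 in the same order, and after length-bin centring 0.57, 0.65, 0.50 and 0.22, so that the value of Msh6 rested on the scaling.

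**Figure D5:**
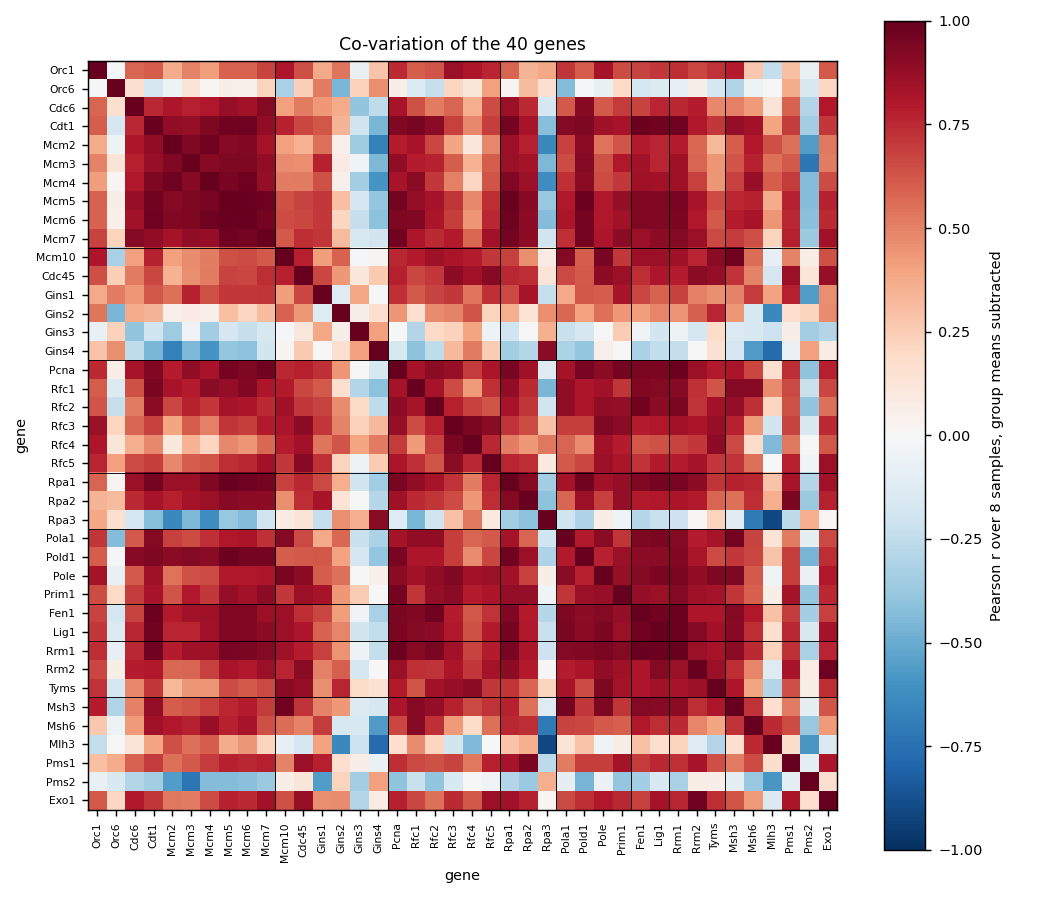
Pearson r between each pair of the 40 genes over the 8 samples after the group means were subtracted (red positive, blue negative); black lines separate the roles. The helicase subunits form a block with a mean r of 0.93, while Orc6, Gins3, Gins4, Rpa3, Mlh3 and Pms2 stand out as pale or blue lines.

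The helicase genes and the markers of dividing cells did not vary alike in every sample. The mean of 8 cycling cell markers, of which Cdk1 was highest, on the log2(TPM + 1) scale was 2.98, 4.80, 4.51 and 4.48 in controls 1 to 4 and 4.26, 4.05, 3.84 and 3.21 in Siglec-XII samples 1 to 4. Control 1 had the lowest value of all, whereas its mean of Mcm2 to Mcm7 (4.11) was the second highest. The 12 epithelial markers averaged 9.15 ± 0.19 log2 units among controls and 9.08 ± 0.20 among Siglec-XII samples (SD, n = 4 each), and 0 of 12 were at an unadjusted p of at most 0.05. At that limit, 7.67% of all tested genes were lower and 1.19% higher in Siglec-XII samples. Of the crypt base markers, 3 of the 4 tested were lower at that limit. The summed level of the crypt base markers was 47.2 to 60.1 TPM in controls and 25.4 to 48.9 TPM in Siglec-XII samples. Smooth muscle markers summed to 708 to 1147 TPM in controls and 346 to 752 TPM in Siglec-XII samples, with 3 of 8 lower at that limit. Of the 5 endothelial markers, which summed to 2.5 to 4.7 TPM in controls and 1.8 to 2.4 TPM in Siglec-XII samples, Pecam1 alone was tested, and it was lower with no overlap of the groups (difference -0.59, unadjusted p = 0.000973 from limma). In such bulk tissue, fewer cells of a type and less RNA per cell cannot be told apart. The part of these cell types in the differences of the replication genes was not tested.

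Other genes of the same pathways were examined as 4 lists with 92 tested genes, of which 0 passed an adjusted p of 0.05 and 12 passed an unadjusted p of 0.05, all lower in Siglec-XII samples (limma), beside 7.67% of all tested genes lower at this limit. Among 32 other replication genes, with a median difference of -0.23, these were Dscc1 (-0.39), a subunit of an alternative clamp loader, and Pola2 (-0.46), a partner of Pola1. Of 15 genes of nucleotide supply and chromatin assembly (median -0.31), Cad (-0.69), which starts pyrimidine synthesis, Slbp (-0.37), which binds histone mRNA, and Dut (-0.22), which removes dUTP, were at this limit. The 26 regulators of entry into S phase (median -0.24) gave Ccnd1 (-0.67), Mybl2 (-0.51), Cdk4 (-0.41), Ccne1 (-0.34) and E2f6 (-0.27). Of 19 genes of other DNA repair pathways (median -0.28), Xrcc6 (-0.43), of end joining, and Ercc1 (-0.35), of excision repair, were at the limit.

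Several members share a start region with a gene transcribed away from them. From the annotation, 13 tested neighbours of 12 members were considered (start sites within 1000 bases, 5′ overlaps included), with a median difference of -0.076. Among these, the neighbours at the largest and smallest r with their member were Prkdc beside Mcm4 (0.82), Ufd1 beside Cdc45 (0.72), Abhd12 beside Gins1 (0.49), Aimp2 beside Pms2 (-0.49), Tmem258 beside Fen1 (-0.45) and Ormdl1 beside Pms1 (-0.44), after subtraction of group means over 8 samples. Aimp2, a scaffold protein of the tRNA synthetase complex, was 32.7 ± 2.51 TPM in controls and 33.9 ± 2.74 TPM in the Siglec-XII group (n = 4 each, SD), and did not share the difference of Pms2. Tmem258 was 105 ± 2.35 TPM and 117 ± 11.4 TPM, a difference of 0.15 beside -0.56 for Fen1. One neighbour of the 13, Gm45062 beside Rpa3, was at an unadjusted p of at most 0.05 (-0.51). The remaining neighbours considered were Prpf38a (Orc1), Vps35 (Orc6), Ap4m1 (Mcm7), Smyd4 (Rpa1), Umad1 (Rpa3) and Pxmp2 (Pole), with differences between -0.14 and 0.0049. Orc6, Mcm7, Cdc45 and Fen1 overlap their neighbours at the 5′ ends on opposite strands, and whether reads were assigned by strand is not given in the sources used here, so their values may share reads.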

How the data were processed

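Distal colon RNA of 4 control and 4 Siglec-XII samples was analysed. The authors deposited log2(TPM + 1) per gene, and the submitters' processing notes name kallisto 0.45.0 and GRCm38. The methods text instead names a human reference and DESeq2 on counts, and these counts were not used here. TPM keeps no reads, so depth, counting intervals and detection floors could not be had, and precision rests on how few samples there were. The labels number 4 samples per group, whereas the design text speaks of fewer mice and the methods of technical replicate libraries, so p-values measure the spread between these samples, which may be technical. The labels name a total RNA kit and the methods an mRNA kit. The columns left unused number 0.

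Groups were compared with limma 3.58.1 (R 4.3.3, eBayes with trend) on log2(TPM + 1) over the 13164 genes that reached 1 TPM in 4 or more samples, with Benjamini-Hochberg adjustment over all of them. The script was tested on simulated data. Where a symbol was repeated, the entry with the highest mean was used for lookups by symbol. The members and gene lists were chosen with earlier results of these data known, so no test over a list was run. Values in every sample are given for each repair gene, Pcna, the members of highest and lowest mean, and members at an unadjusted p of at most 0.05 or without overlap. Other pathway genes are named at the same limit (at most 5 per list), of each marker list the highest gene, and the neighbours transcribed away from a member, of which 1 is not reported here. Alternatives were no filter or one of 5 TPM, quantile normalization, a pseudocount of 0.1, centring on epithelial markers or on the median, a replicate block, array weights and each sample left out. Centring within 20 bins of transcript length and leaving out Siglec-XII samples 3 and 4 were added after seeing the data. The sample numbers were not taken to pair the samples. Positions are those of GENCODE M21 on GRCm38, and promoter sequences those of RefSeq (GRCm38.p6). Python 3.11.15 and matplotlib 3.10.9 were used for summaries and figures.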

Additional observations from a re-analysis of the deposited data

Results flagged for a closer look

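Of the 80 groups of 4 values tested (40 genes in both groups), 4 held a sample far from the other 3 by Dixon's ratio of the gap to the range, and chance alone gives about 1 in 20, or 4. Gins1 in control 3 (2.40 log2(TPM + 1), nearest 2.70) had a ratio of 0.846. Pold1 in Siglec-XII 4 (2.21, nearest 2.89) had a ratio of 0.859. For Tyms in control 1 (5.50, nearest 5.84) the ratio was 0.953. Pms2 in Siglec-XII 4 (2.34, nearest 2.19) had a ratio of 0.916, with the sample above the others, while most members were lowest in that sample.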

How the results depend on the processing

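The count of members past an adjusted p of 0.05 was 0 in the main comparison and in every alternative, as was that of the other pathway genes (limma). The 12 members lower at an unadjusted p of 0.05 became 4 after quantile normalization, 4 after median centring and 3 without Siglec-XII samples 3 and 4, and 4 to 21 with 1 sample left out (4 without control 3, 5 without control 2 or control 4, 7 without Siglec-XII 4, 21 without Siglec-XII 2). Of all tested genes, 3.1%, 2.16% and 1.57% were lower in the first 3 of these runs, against 7.67% in the main comparison. With 1 sample left out, this share was 8.14% without control 3, 5.3% without control 2 and 3.91% without control 4. It was 3.18% without Siglec-XII 4 and 10.8% without Siglec-XII 2. The 0 members higher at that limit became 1 with quantile normalization, median centring, array weights and length-bin centring. In the same order, 5.35%, 8.64%, 3.28% and 6% of all tested genes were higher. For the other pathway genes, 12 became 7 with a filter of 5 TPM, 2 after quantile normalization, 3 after median centring, 20 with array weights, 1 without Siglec-XII samples 3 and 4, and 2 to 22 with 1 sample left out (4 without control 2, control 3 or Siglec-XII 3, 3 without control 4, 2 without Siglec-XII 4, 22 without Siglec-XII 2). Of these, 1 of the 2 after quantile normalization, 1 of the 3 after median centring and 6 of the 8 after length-bin centring were lower in Siglec-XII samples, and the others were higher. The share of all tested genes that were lower was 6.13% with a filter of 5 TPM and 10.8% with array weights. It was 4.55% after length-bin centring and 2.93% without Siglec-XII 3, and the remaining shares are those given above. The median of the repair genes (-0.16) became -0.33 with a filter of 5 TPM, where only 29 of the members were tested, -0.23 with a pseudocount of 0.1, 0.032 after quantile normalization, 0.048 after median centring, -0.098 with epithelial centring, 0.0046 with array weights, 0.062 with length-bin centring, -0.048 without Siglec-XII samples 3 and 4, and -0.24 to -0.060 with 1 sample left out. The median of the replication genes (-0.39) became -0.19 after quantile normalization, -0.18 after median centring, -0.15 with array weights, -0.23 with length-bin centring, -0.18 without Siglec-XII samples 3 and 4, and -0.49 to -0.21 with 1 sample left out (-0.21 without Siglec-XII 4). The gap between both medians (0.23) became 0.059 with a filter of 5 TPM, 0.13 without Siglec-XII samples 3 and 4, and 0.15 to 0.30 with 1 sample left out (0.15 without Siglec-XII 4). With limma array weights, the differences of Orc1 (0.036), Mcm2 (0.029), Rfc1 (0.11), Rfc5 (0.089), Rpa3 (-0.16), Msh3 (0.071) and Pms1 (0.056) changed sign. In that run, the Siglec-XII group rested mostly on sample 2 (weight 6.87). With each sample centred on the epithelial markers, the differences of Orc1 (0.065), Gins4 (0.021) and Msh3 (0.012) changed sign. With length-bin centring, the differences of Orc1 (0.18), Gins2 (0.051), Gins4 (0.011), Rfc2 (0.010), Rfc5 (0.081), Tyms (0.058), Msh3 (0.14), Mlh3 (0.017), Pms1 (0.070) and Exo1 (0.054) changed sign. With median centring, the differences of Orc1 (0.21), Gins2 (0.071), Gins3 (0.036), Gins4 (0.17), Rfc2 (0.00023), Rfc3 (0.082), Rfc4 (0.094), Rfc5 (0.13), Tyms (0.084), Msh3 (0.16) and Pms1 (0.11) changed sign. After quantile normalization, the differences of Orc1 (0.20), Gins2 (0.057), Gins4 (0.12), Rfc3 (0.042), Rfc4 (0.087), Rfc5 (0.12), Msh3 (0.19), Mlh3 (0.0048) and Pms1 (0.058) changed sign. Without Siglec-XII samples 3 and 4, the differences of Orc1 (0.019), Rfc1 (0.070), Rpa3 (-0.14), Msh3 (0.12) and Pms1 (0.0066) changed sign. With 1 sample left out, sign changes occurred in Orc1 (-0.059 to 0.071), Gins4 (-0.096 to 0.0082), Rfc5 (-0.18 to 0.012), Rpa3 (-0.044 to 0.13) and Msh3 (-0.12 to 0.062). The cause of these changes was not tested.

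With a replicate block, 10 members were lower and 0 higher at an unadjusted p of 0.05, and 8 other pathway genes passed it. Of all tested genes, 6.19% were lower and 0.988% higher with this block. Samples of the same number did not deviate together (correlations of -0.16, -0.20, 0.10 and -0.0025), so the block was not read as a pairing. A search for the PCNA-interacting box in proteins was planned and not run.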

Other observations

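Markers of other cell types were low in these samples. The 8 markers of B cells and germinal centres summed to 1.8 to 7.3 TPM in controls and 2.1 to 3.2 TPM in Siglec-XII samples, with none tested and Rgs13 the highest, and the 6 T cell markers, with Lck the highest, to 3.2 to 4.3 and 3.0 to 3.7 TPM. Macrophage markers, led by C1qa, summed to 9.7 to 27.5 TPM in controls and 6.4 to 11.1 TPM in Siglec-XII samples, with control 1 the highest. Of the 4 tested, 2 were lower at an unadjusted p of at most 0.05 (limma), beside 7.67% of all tested genes. The sums for markers of enteric neurons and glia, led by Uchl1, were 4.6 to 9.9 and 3.8 to 5.0 TPM, and those for adipocyte markers, led by Fabp4, were 5.0 to 30.9 and 4.7 to 14.5 TPM. The highest marker was Lgals4 for epithelium (5034 ± 346 and 5462 ± 226 TPM, SD, n = 4 each), Smoc2 for the crypt base (23.3 ± 4.15 and 19.5 ± 4.44 TPM), Cdk1 for cycling cells (66.8 ± 26.9 and 48.1 ± 8.38 TPM) and Tagln for smooth muscle (252 ± 73.1 and 173 ± 39.9 TPM).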
